A study of Mus musculus with 1600 samples.

Results

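The genes described here are 10 adhesion molecules and chemoattractants through which vessel walls recruit leukocytes: the selectins Sele and Selp, the immunoglobulin-family adhesion molecules Icam1, Icam2 and Vcam1, the membrane-bound chemokine Cx3cl1, and the secreted chemokines Ccl2, Cxcl1, Cxcl10 and Cxcl12. They are 10 of the 45792 gene identifiers in the count tables. All 10 symbols were found once through GENCODE M21 (build GRCm38). Sele (chr1:164048234-164057677) and Selp (chr1:164115264-164150026) are neighbours on the plus strand of chromosome 1. Icam1 lies at chr9:21015985-21028817, Icam2 at chr11:106377656-106388075, Vcam1 at chr3:116109949-116129688 and Cx3cl1 at chr8:94772009-94782427. The secreted chemokines lie at chr11:82035571-82037453 (Ccl2), chr5:90891241-90893115 (Cxcl1), chr5:92346638-92348889 (Cxcl10) and chr6:117168535-117181367 (Cxcl12).

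Leukocytes leave the blood in steps. Selectins on the endothelial surface slow passing cells, chemokines held on that surface activate leukocyte integrins, and ICAM and VCAM proteins bind those integrins and hold the cell in place. In many vessels Icam2 is made constitutively, whereas Icam1, Vcam1, Sele, Ccl2, Cxcl1 and Cxcl10 are induced by inflammatory cytokines through the transcription factor NF-kB. Nitric oxide made by endothelial nitric oxide synthase, the product of Nos3, is known to restrain leukocyte adhesion, and Nos3-deficient mice are used because diabetic kidney injury is more severe in them.

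The Diabetes groups came from Nos3-/- mice on a C57BL/6 background given streptozotocin, a toxin of pancreatic beta cells, in 5 daily doses of 50 μg per g that began at 8 weeks of age. The Control groups were littermates of the same genotype that received citrate vehicle. Glomeruli, the filtering capillary tufts of the kidney, were taken at 10 weeks, and cells from 3 mice were pooled for each condition in each of 2 experiments, which gives 4 pools. Single cells were captured on the Fluidigm C1 HT chip after enzymatic digestion at body temperature, so the mice within a pool cannot be separated. All groups carry the Nos3 deletion and none has intact Nos3, so no value here compares genotypes. Reads assigned to Nos3 in endothelial-like wells came to 99.4 and 74.3 CPM, reads of the gene per 1000000 reads, in the Diabetes pools of experiments 1 and 2, against 68.3 and 105 CPM in the Control pools. These reads check nothing, because the sources used here do not say which part of the gene was deleted.

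Of 1600 chip positions, 833 were imaged with 1 cell, and 639 of those passed limits on detected genes and mitochondrial reads: 128 and 188 in the Diabetes pools and 120 and 203 in the Control pools. Median reads per kept well were 43577 and 176715 in the Diabetes pools and 32222 and 219072 in the Control pools, so experiment 2 was sequenced several-fold deeper than experiment 1. The 588 wells imaged with no cell still held reads and serve here as the measure of free RNA. The design text describes sex-matched littermates, yet in endothelial-like wells Xist, transcribed from the inactive X chromosome, was at 1.63 and 0.102 CPM in the Diabetes pools and at 416 and 244 CPM in the Control pools. The sum of 4 Y-linked genes was 171 and 175 CPM in the Diabetes pools, against 0.199 and 0.953 CPM in the Control pools. Condition and sex-linked expression therefore cannot be told apart in any comparison below.

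Kept wells were grouped by clustering in which the 10 genes took no part, and 7 classes were named from marker genes. The endothelial-like class was the largest, with 75 and 88 wells in the Diabetes pools and 46 and 68 wells in the Control pools. The marker lists named the classes, so the summed level of the 14 endothelial markers is a description of the class and no check of it. It was 21464 and 17301 CPM in the Diabetes pools and 18404 and 20946 CPM in the Control pools. The class joins 3 clusters, numbered 0, 3 and 12, in unequal mix: 12, 54 and 9 wells in Diabetes pool 1 and 18, 3 and 67 in Diabetes pool 2, against 11, 34 and 1 in Control pool 1 and 20, 11 and 37 in Control pool 2. Mesangial-like wells numbered 5 and 24 in Diabetes against 31 and 66 in Control, and immune-like wells 29 and 41 against 5 and 6. The remaining named classes were podocyte-like, smooth muscle or renin cell-like, tubular-like and fibroblast-like, each with at most 22 wells in a pool. Differences between these classes are descriptions and carry no test.

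In the endothelial-like class 6 of the 10 genes were above the empty wells in all 4 pools: Icam1, Icam2, Vcam1, Sele, Selp and Cx3cl1. Ccl2 and Cxcl10 were above the empty wells in no pool, and Cxcl1 and Cxcl12 in 1 pool each. For Selp this hangs on the top well of each pool: without that well it was below the empty wells in all 4 pools. With the top well left out of the empty wells too, Diabetes pool 2 alone stayed above, at 17.2 against 15.6 CPM. Vcam1 in Diabetes pool 1 was within 1 CPM of its empty wells and at 42.5 CPM without its top well. Per kilobase of exon, the mean endothelial-like level over the 4 pools was 373 CPM per kb for Icam2, 138 for Icam1, 55.0 for Cx3cl1, 52.9 for Sele and 25.4 for Vcam1. On that scale Selp and the secreted chemokines lay between 1.71 and 5.31 CPM per kb.

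**Figure D1:**
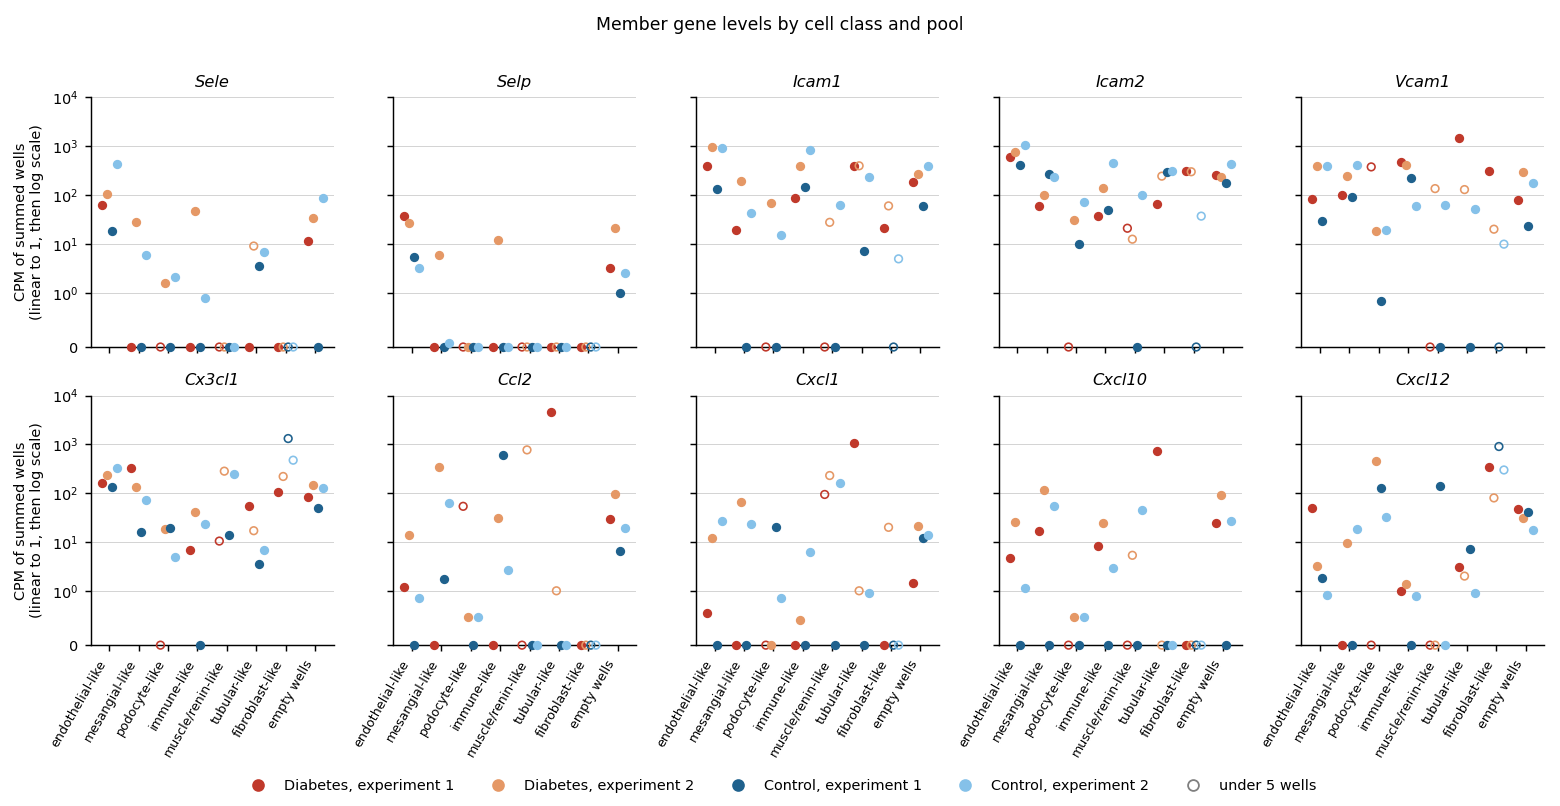
Level of each of the 10 genes in CPM (symmetric log axis) in the 7 named classes and in wells with no cell imaged, with 1 point per pool and open points where a pool holds under 5 wells of the class. Icam2 and Icam1 are highest in endothelial-like wells, with means of 710.0 and 604 CPM, Cxcl12 is highest in fibroblast-like wells at 406 CPM, and the empty wells show how much of each low level free RNA can give.

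Icam2, a ligand of the leukocyte integrin LFA-1, was the most evenly held of the 10 genes. It averaged 710.0 ± 274 CPM in endothelial-like wells (SD, n = 4 pools) and between 28.4 and 231 CPM in the other 6 named classes. In endothelial-like wells it measured 613 and 758 CPM in the Diabetes pools and 409 and 1060.2 CPM in the Control pools. The groups overlapped, and Diabetes was 1.5-fold Control in experiment 1 and 0.715-fold in experiment 2. After each well was thinned to 10000 reads, Icam2 was found in 78.3% and 83.0% of endothelial-like wells in Diabetes and in 60.5% and 80.9% in Control. Empty wells reached 71.4% and 60.9% in Diabetes and 29.4% and 86.7% in Control, so the share of wells does not separate cells from free RNA for this gene. Here and below these empty-well shares cover the few that held 10000 reads, 14 of 184 and 92 of 98 in Diabetes and 17 of 195 and 105 of 111 in Control, so that those of experiment 1 describe its best-filled empty wells only. By level the empty wells were lower in all 4 pools, with 259 and 230.2 CPM in Diabetes and 180 and 439.6 CPM in Control.

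Icam1, the inducible ligand of LFA-1, averaged 604 ± 407 CPM in endothelial-like wells and 365 ± 336 CPM in immune-like wells, a difference smaller than the spread between pools. Tubular-like wells followed with 259.7 ± 186 CPM, and the other named classes averaged from 20.9 to 63.3 CPM. Without the top well of each pool the tubular-like levels were 51.0 and 2.33 CPM in Diabetes and 3.82 and 43.7 CPM in Control. These lay below the empty wells of each pool. Of the 22 tubular-like wells, 8 scored as endothelial by marker sums. In endothelial-like wells Icam1 stood at 391 and 965 CPM in the Diabetes pools and at 135 and 924 CPM in the Control pools. Each experiment's Diabetes pool was the higher, by 2.89-fold in experiment 1 and 1.04-fold in experiment 2, but the 2 groups overlapped because the experiments lay far apart. Empty wells held Icam1 at 183 and 274 CPM in Diabetes and at 60.9 and 387 CPM in Control. Their ratio was 3.00 in experiment 1 and 0.708 in experiment 2, and the part of free RNA in the endothelial-like ratios was not tested. Thinned to 10000 reads, 49.3% and 69.3% of endothelial-like wells in Diabetes held Icam1, against 21.1% and 51.5% in Control. The corresponding empty wells gave 21.4% and 65.2% in Diabetes and 5.88% and 54.3% in Control, which places the endothelial-like share of experiment 2 within reach of the background. Within experiment 2 the clusters differed, with ratios of 1.06 in cluster 0, 0.535 in cluster 3 and 1.49 in cluster 12. Without thinning the shares were 60% and 90.9% in Diabetes and 28.3% and 77.9% in Control.

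Vcam1, the ligand of the integrin VLA-4, was not highest in endothelium. It averaged 225 ± 197 CPM in endothelial-like wells, 211 ± 149 CPM in mesangial-like wells and 294 ± 188 CPM in immune-like wells, values that do not differ beyond their spread. Its tubular-like mean of 409.7 ± 701 CPM came mainly from 1 pool. Endothelial-like wells held 81.3 and 388 CPM in Diabetes and 30.1 and 401 CPM in Control, with overlapping groups and ratios of 2.70 in experiment 1 and 0.967 in experiment 2. The ratio of experiment 2 joins opposite directions: cluster 12 held Vcam1 at 352 CPM in Diabetes and 100.3 CPM in Control, cluster 0 at 604 CPM in Diabetes and 1092.5 CPM in Control, and cluster 3 at 355 CPM in Diabetes and 806 CPM in Control. In Diabetes pool 1 the empty wells reached 81.1 CPM, almost the level of the endothelial-like wells. Vcam1 was found in 8.70% and 54.5% of thinned endothelial-like wells in Diabetes and 7.89% and 32.4% in Control, below the empty wells in 3 of 4 pools.

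Among the selectins, Sele, the cytokine-induced E-selectin of endothelium, averaged 154 ± 185 CPM in endothelial-like wells. No other named class averaged more than 12.1 CPM. The endothelial-like wells measured 63.7 and 108 CPM in Diabetes and 18.1 and 427 CPM in Control, so the Control pools were both the lowest and the highest of the 4. Diabetes was 3.53-fold Control in experiment 1 and 0.253-fold in experiment 2, and both ratios rest on few wells. Without the top well of each pool the levels were 23.4 and 85.8 CPM in Diabetes and 0 and 203 CPM in Control, and a second well of Control pool 2 held another 2043.5 reads beside the 3862 of the top well. Thinned shares of wells with Sele were 5.80% and 23.9% in Diabetes and 2.63% and 19.1% in Control, where empty wells gave 0% and 11.96% in Diabetes and 0% and 21.9% in Control.

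Selp encodes P-selectin, which endothelium and platelets store ready for release. It was read at 38.2 and 26.8 CPM in endothelial-like wells of the Diabetes pools and at 5.42 and 3.15 CPM in those of the Control pools. The Diabetes pools were above both Control pools, by 7.04-fold in experiment 1 and 8.50-fold in experiment 2. Nearly all reads of experiment 1 came from 1 well: without the top well of each pool, Selp was at 0.301 and 17.2 CPM in Diabetes and at 0 and 0.235 CPM in Control. Only 1.45% and 9.09% of thinned endothelial-like wells in Diabetes held Selp, against 2.63% and 2.94% in Control, and empty wells of experiment 2 gave 8.70% in Diabetes and 2.86% in Control. By level the empty wells held Selp at 3.14 and 21.3 CPM in Diabetes and at 0.993 and 2.49 CPM in Control. Their ratio was 3.17 in experiment 1 and 8.56 in experiment 2, and the part of free RNA in the endothelial-like ratios was not tested.

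Cx3cl1, or fractalkine, is tethered to the cell surface and binds CX3CR1 on monocytes. In endothelial-like wells it measured 164 and 233 CPM in Diabetes and 136 and 333 CPM in Control, with overlapping groups and ratios of 1.21 in experiment 1 and 0.699 in experiment 2. Its highest class mean was 530.2 CPM in fibroblast-like wells, which held 108 and 220.3 CPM in Diabetes and 1318 and 475 CPM in Control, but no pool had more than 6 such wells. Its receptor Cx3cr1 was found mostly in immune-like wells, at 206 and 49.3 CPM in Diabetes and 335 and 472 CPM in Control.

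Ccl2, the chemoattractant of CCR2-bearing monocytes, was close to absent from endothelial-like wells, at 1.17 and 14.1 CPM in Diabetes and 0 and 0.875 CPM in Control. The empty wells held more of it, 29.0 and 97.97 CPM in Diabetes and 6.62 and 19.4 CPM in Control. Its reads came instead from a few wells of other classes. In mesangial-like wells Ccl2 was at 0 and 352 CPM in Diabetes and at 1.77 and 63.6 CPM in Control. One tubular-like well of Diabetes pool 1 held Ccl2 at 15366 CPM, with Cxcl1 at 3714 CPM, Cxcl10 at 2378 CPM, Vcam1 at 4647 CPM and Icam1 at 1284 CPM in the same well.

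Cxcl1, a neutrophil chemoattractant that binds CXCR2, was at 0.587 and 12.2 CPM in endothelial-like wells in Diabetes and at 0 and 27.1 CPM in Control. Cxcl10, an interferon-induced ligand of CXCR3, was at 4.70 and 25.3 CPM in Diabetes and at 0 and 1.17 CPM in Control. In empty wells Cxcl1 reached 1.45 and 21.5 CPM in Diabetes and 11.9 and 14.2 CPM in Control, so that Control pool 2 alone exceeded its background. Cxcl10 reached 24.6 and 90.5 CPM in empty wells in Diabetes and 0 and 26.5 CPM in Control, at or above the endothelial-like level in every pool. The span of Cxcl10 overlaps that of Art3 on the opposite strand, and the sources used here do not say whether reads were counted by strand, so its reads are uncertain.

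Cxcl12, the ligand of CXCR4, is known from arterial endothelium, stroma and podocytes, and here its highest class means were those of fibroblast-like and podocyte-like wells. Podocyte-like wells held 0 and 449.9 CPM in Diabetes and 129 and 32.1 CPM in Control, where the 0 comes from a single well. Fibroblast-like wells held 338 and 80.1 CPM in Diabetes and 905 and 299 CPM in Control. In endothelial-like wells it was at 49.9 and 3.22 CPM in Diabetes and at 1.81 and 0.933 CPM in Control. Empty wells were at 47.8 and 31.3 CPM in Diabetes and at 41.0 and 17.6 CPM in Control, so that only Diabetes pool 1 exceeded its own background.

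**Figure D2:**
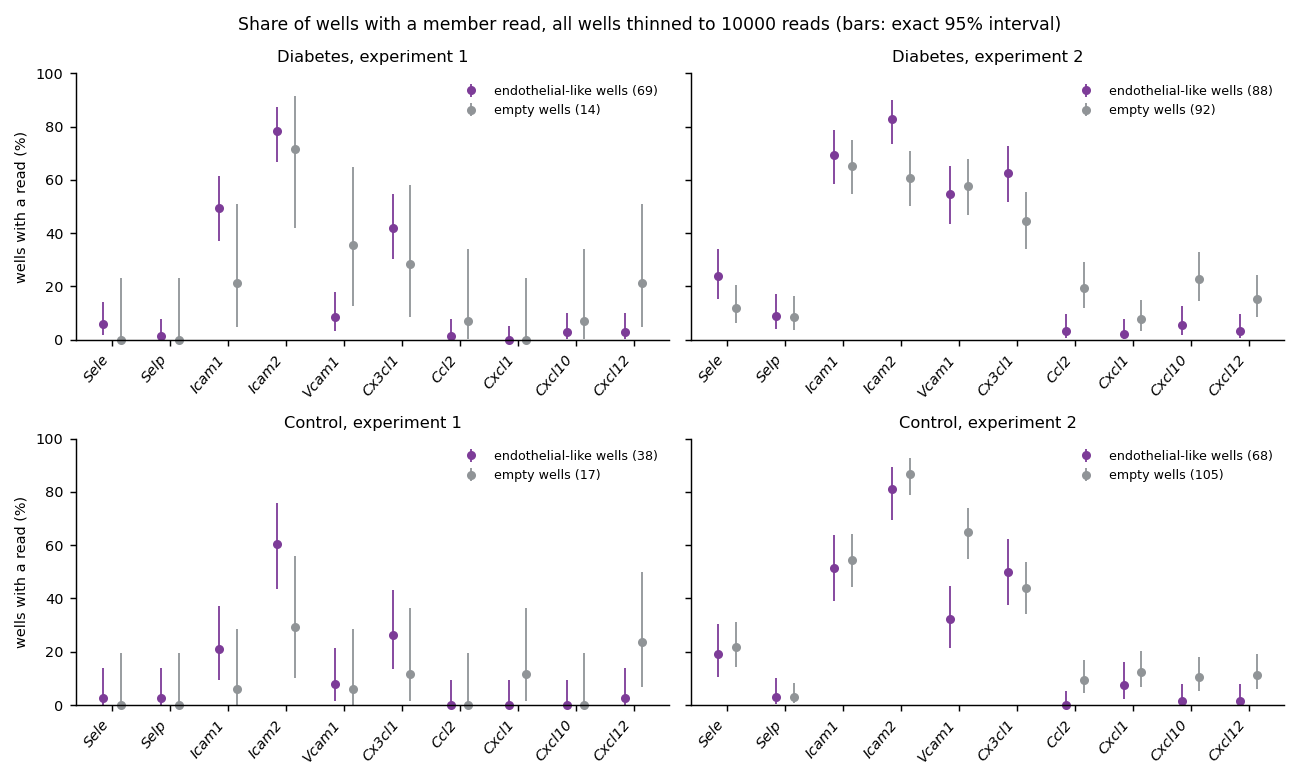
Percent of endothelial-like wells and of empty wells that hold at least 1 read of each gene after thinning to 10000 reads, by pool, with exact Clopper-Pearson 95% intervals that cover counting error only. Icam1 reaches 49.3% in endothelial-like wells of Diabetes pool 1 against 21.4% in its empty wells, while the 4 secreted chemokines lie at or under their empty wells in every pool.

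The reads of most of these genes were concentrated in few wells. In experiment 1 a single well held 92.8% of all Selp reads, 91.3% of Ccl2 reads, 87.6% of Cxcl1 reads, 80.7% of Cxcl10 reads and 55.8% of Sele reads in kept wells. In experiment 2 the top well held 36.7% of Sele reads and 31.3% of Ccl2 reads. Icam2 was the opposite: its top well held 5.81% of reads in experiment 1 and 2.26% in experiment 2, and it took the top 19 and 39 wells to reach 50% of the total. For Icam1 the top 9 and 21 wells held 50% of the reads, and for Cx3cl1 the top 8 and 27. Within an experiment it thus took at least 8 wells to hold 50% of the reads of Icam2, Icam1 or Cx3cl1. For Selp, Sele and the secreted chemokines it took at most 5. These counts join both conditions and all classes of an experiment, so they do not measure the spread within a pool.

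**Figure D3:**
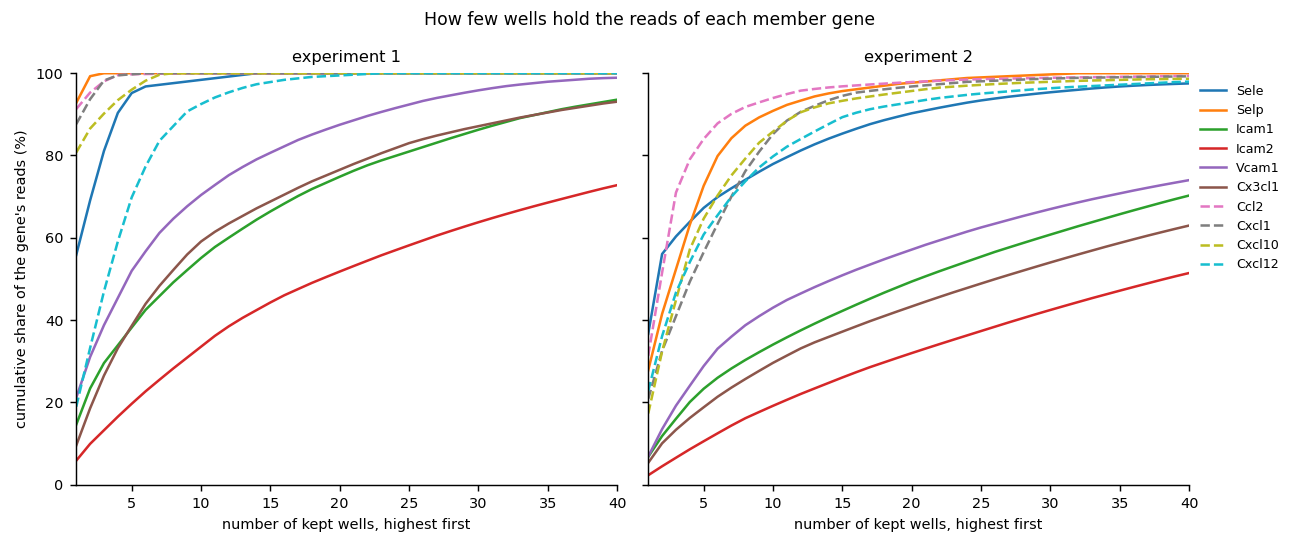
Cumulative percent of each gene's reads over the kept wells, ranked from the well with most reads, shown for the top 40 wells of each experiment. The top 10 wells of experiment 2 hold 19.1% of Icam2 reads but 94.0% of Ccl2 reads and 90.9% of Selp reads.

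Single endothelial-like wells reached very high levels of the inducible genes. One well of Control pool 2 held Sele at 25537 CPM together with Vcam1 at 12061 CPM and Cxcl1 at 1190.2 CPM, but Icam1 at 6.61 CPM. Another well of that pool held Icam1 at 13203 CPM, with Vcam1 at 3286 CPM, Cx3cl1 at 3193 CPM and Sele at 1663 CPM. Such wells occurred without diabetes: the highest thinned Icam1 value was 137 reads of 10000 in Control pool 2, against 36 and 65 reads in the Diabetes pools and 19 reads in Control pool 1. The median endothelial-like well had 0 and 3 Icam1 reads of 10000 in Diabetes and 0 and 1 in Control.

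Wells with Sele in the deeper experiment 2 often held the other inducible genes. Of 21 thinned endothelial-like wells with Sele in Diabetes pool 2, 19 held Icam1, 16 held Vcam1 and 17 held Cx3cl1, where 69.3%, 54.5% and 62.5% of all 88 wells held these genes. Of 13 such wells in Control pool 2, 10 held Icam1, 10 held Vcam1 and 12 held Cx3cl1, where 51.5%, 32.4% and 50% of all 68 wells did. The Spearman correlation of Sele over wells was 0.349 in Diabetes pool 2 and 0.562 in Control pool 2 with Vcam1, and 0.095 in Diabetes pool 2 and 0.494 in Control pool 2 with Cx3cl1. These are descriptions of sparse counts within 1 pool, and wells of a pool share library and depth.

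**Figure D4:**
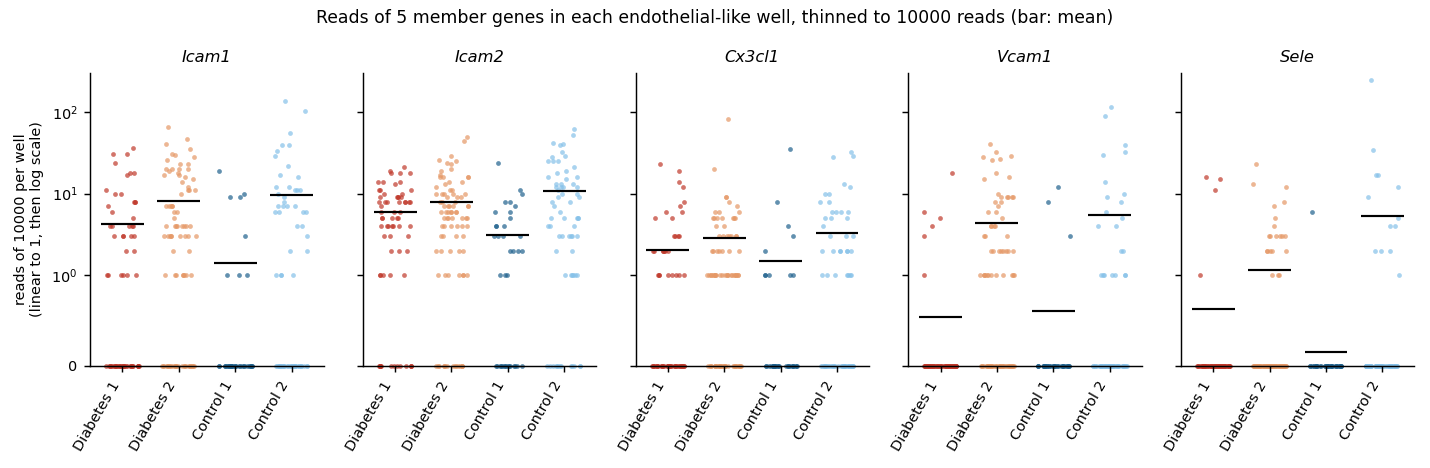
Reads per 10000 in each thinned endothelial-like well for Icam1, Icam2, Cx3cl1, Vcam1 and Sele, Diabetes pools left of Control pools, with a bar at the mean. Most wells hold Icam2 in every pool, while Sele is 0 in most wells and reaches 251 reads in 1 well of Control pool 2.

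Upstream sequence is shown for Icam1, Sele and Cxcl10, 3 of the genes known to be induced through NF-kB, because Icam1 and Sele were read in endothelial-like wells and Cxcl10 did not stand clear of free RNA. Capitals mark GGNNNTTCC on either strand, a loose form of the sequence that NF-kB binds. The 250 bases before each RefSeq start (build GRCm38.p6) are written on the gene's strand: chr9:21015690-21015939 on the plus strand for Icam1, chr1:164047984-164048233 on the plus strand for Sele, and chr5:92348890-92349139 on the minus strand for Cxcl10.
Icam1: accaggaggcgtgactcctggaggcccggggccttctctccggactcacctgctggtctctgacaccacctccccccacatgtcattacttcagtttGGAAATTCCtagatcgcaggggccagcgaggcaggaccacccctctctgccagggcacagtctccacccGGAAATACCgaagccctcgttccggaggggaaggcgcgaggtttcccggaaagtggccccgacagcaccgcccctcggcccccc
Sele: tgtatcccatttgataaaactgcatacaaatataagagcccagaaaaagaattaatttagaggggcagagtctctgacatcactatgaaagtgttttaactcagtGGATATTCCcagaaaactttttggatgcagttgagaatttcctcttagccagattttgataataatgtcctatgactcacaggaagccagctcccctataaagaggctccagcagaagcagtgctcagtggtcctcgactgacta
Cxcl10: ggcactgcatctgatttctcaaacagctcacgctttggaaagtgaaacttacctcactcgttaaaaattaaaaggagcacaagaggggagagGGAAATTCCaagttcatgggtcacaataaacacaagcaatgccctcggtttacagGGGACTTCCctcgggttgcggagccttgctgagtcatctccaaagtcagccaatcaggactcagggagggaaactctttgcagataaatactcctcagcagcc

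Of the 10 genes, 7 were in the promoter table, and 6 of these held the motif in the 250 upstream bases: Icam1, Cxcl1 and Cxcl10 with 2 matches each, and Sele, Selp and Cx3cl1 with 1 each. Cxcl12 held none in this window. Among all 32851 RefSeq promoters of that length, 15.7% held at least 1 match and 1.46% at least 2. In the Icam1 promoter the matches begin at positions -153 and -84 from the start, in that of Sele at -145, and in that of Cxcl10 at -158 and -103. Of the Cx3cl1 window 171 bases lie inside the gene's GENCODE span. A match is a string of letters and no evidence of binding in these cells.

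The comparison of Diabetes with Control was tested on reads summed per pool, in endothelial-like, mesangial-like and immune-like wells and in all kept wells, with experiment as a block. In endothelial-like wells none of the 10 genes passed, against 0.0245% of the 12228 genes tested. Fitted log2 changes were 0.80 (SE 0.39) for Icam1, 0.06 (SE 0.34) for Icam2, 0.67 (SE 0.46) for Vcam1, -0.18 (SE 0.89) for Sele, 2.96 (SE 1.31) for Selp and -0.12 (SE 0.40) for Cx3cl1. In edgeR's quasi-likelihood test the unadjusted p was 0.0499 for Selp, 0.0577 for Cxcl10 and 0.0722 for Icam1, and each Benjamini-Hochberg adjusted p rounded to 1.00. With 2 pools against 2, an exact permutation test cannot go below 0.333. For Icam1 the direction turned when Diabetes pool 2 was left out (log2 change -0.63) or Control pool 1 was left out (-0.52), in fits without the block.

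All 10 genes passed the filter on low counts in endothelial-like wells. Ccl2 passed through the Diabetes pools alone and so could only count as higher there. Cxcl10 also reached the filter in Control pool 2, at 1.17 CPM, but was above the empty wells in no pool. Nothing is read from the tallies that follow. Icam1, Selp, Ccl2, Cxcl10 and Cxcl12 were higher in Diabetes in both experiments, that is 5 of 10, where 27.6% of all tested genes were. None was lower in both, where 23.6% of all genes were. For Selp, Ccl2, Cxcl10 and Cxcl12 both Diabetes pools lay above both Control pools, as they did for 17.9% of all genes. Leaving out Ccl2 and Cxcl10, 3 of 8 genes were higher in both experiments and 2 of 8 had pools apart.

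Immune markers moved with these values. In the endothelial-like sums 13 immune markers together came to 426 and 253 CPM in Diabetes and to 107 and 59.9 CPM in Control, and 9 of 13 were higher in both Diabetes pools than in both Control pools. Lyz2, a myeloid lysozyme, was at 44.8 and 100.0 CPM in Diabetes, against 1.81 and 1.48 CPM in Control. No immune marker was at 0 in the Diabetes pools, while 5 and 1 of them were at 0 in the Control pools. Erythroid markers summed to 12693 and 31.2 CPM in Diabetes and to 0 and 29.2 CPM in Control. Their part in the differences of Selp and the chemokines was not tested.

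In mesangial-like wells 9 of the 10 genes were tested, Selp falling below the filter, and none passed where 0.137% of genes did. Icam1, Cxcl10 and Cx3cl1, 3 of the 9, were higher in Diabetes in both experiments, as were 17.3% of all genes tested. Icam2 alone was lower in both, as were 33.6% of all genes, and Cx3cl1 alone had both Diabetes pools above both Control pools, as 9.81% of all genes did. Empty wells held Icam1 at 183 and 274 CPM in Diabetes and 60.9 and 387 CPM in Control, more than mesangial-like wells in every pool. Mesangial-like wells held Icam1 at 19.3 (0 without the top well) and 191 CPM in Diabetes and at 0 and 43.1 CPM in Control. Icam2 ran the other way, at 59.3 and 99.3 CPM in Diabetes and at 268 and 235 CPM in Control, with no overlap and a fitted log2 change of -1.68. The 14 endothelial markers in the same sums were likewise at 2129 and 2384 CPM in Diabetes and at 4244 and 3328 CPM in Control, 13 of 14 with a negative log2 change, and their part in the Icam2 difference was not tested. Acta2, a smooth muscle marker, and Mgp, a fibroblast marker, were among the genes called higher in Diabetes in these wells, with log2 changes of 2.87 and 4.10. Cx3cl1 was at 328 and 135 CPM in Diabetes and at 15.9 and 72.8 CPM in Control, again with no overlap, and its log2 change of 2.58 (SE 1.17) had an unadjusted p of 0.0275 and an adjusted p of 1 in edgeR's quasi-likelihood test. Empty wells held Cx3cl1 at 84.0 and 148 CPM in Diabetes and at 49.0 and 129 CPM in Control. Only Diabetes pool 1 was above its empty wells, and without its top well it was at 89.3 CPM. Diabetes pool 1 held only 5 mesangial-like wells, and without that pool Ccl2 was called with a log2 change of 3.47 and an adjusted p of 0.0299 in edgeR's test.

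In immune-like wells 6 of the 10 genes were tested and none passed, where 0.0468% of genes did. Vcam1, Cxcl10 and Cx3cl1 were higher in Diabetes in both experiments, as were 39.3% of all genes tested, and Icam1 and Icam2 lower in both, as were 13.5%. For Vcam1 and Cxcl10 both Diabetes pools lay above both Control pools, as they did for 30.6% of all genes. Cxcl10, at 8.44 and 24.9 CPM in Diabetes and at 0 and 2.88 CPM in Control, passed the filter on low counts through the Diabetes pools. It could thus only count as higher there, and nothing is read from its place in these tallies. Vcam1 was at 473 and 418 CPM in Diabetes and at 228 and 59.6 CPM in Control, with no overlap and a log2 change of 2.06 whose unadjusted p was 0.101 in edgeR's test. Without the top well of each pool Vcam1 was at 391.5 and 153 CPM in Diabetes and at 0 and 29.8 CPM in Control. A single well thus gave all Vcam1 reads of Control pool 1. Icam1 was lower in Diabetes in both experiments, at 85.4 and 396 CPM in Diabetes and at 149 and 828 CPM in Control. Endothelial markers in these sums were at 661 and 4235 CPM in Diabetes and at 655 and 7593 CPM in Control, 22 of the 81 immune-like wells scored as endothelial by marker sums, and the part of this in Icam1 and Icam2 was not tested. The class joins clusters 10 and 11, with 10 and 19 wells in Diabetes pool 1 and 39 and 2 in Diabetes pool 2, against 4 and 1 in Control pool 1 and 6 and 0 in Control pool 2. The Control pools held 5 and 6 immune-like wells, and 1 well gave all Icam1 reads in Control pool 1 and 88.7% of them in Control pool 2. Without the top well of each pool Icam1 was at 45.6 and 339 CPM in Diabetes and at 0 and 108 CPM in Control, which turns the direction.

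Over all kept wells, where the make-up of classes differs between pools, fewer cells of a type and less RNA per cell cannot be told apart. None of the 10 genes passed, where 0.0783% of 15330 genes did. Icam1, Vcam1, Selp, Ccl2 and Cxcl10 were higher in Diabetes in both experiments, as were 26.5% of all genes tested, and none was lower in both, as were 28.1%. For Selp, Ccl2 and Cxcl10 both Diabetes pools lay above both Control pools, as they did for 15.9% of all genes. Ccl2 had the smallest p of the 10 in any of the 4 fits: it was at 221 and 89.5 CPM in Diabetes and at 18.7 and 20.8 CPM in Control, and its log2 change of 2.88 (SE 0.47) had an unadjusted p of 0.000643 and an adjusted p of 0.162 in edgeR's quasi-likelihood test. Without the top well of each pool the ratio was 1.32 in experiment 1 and 21.9 in experiment 2, so the size in each experiment hangs on single wells. With Diabetes pool 2 left out, Ccl2 was called with an adjusted p of 0.00196 in edgeR's test. Icam1 had a log2 change of 1.32 (SE 0.40) and an adjusted p of 0.554, and Selp one of 3.67 (SE 1.15) and an adjusted p of 0.577, in the same edgeR fit. DESeq2 on the same sums called Ccl2 (adjusted p = 1.35e-06), Icam1 (0.0203), Cxcl10 (0.0263), Selp (0.0271) and Vcam1 (0.0486), and it called 562 genes in all. Immune markers summed to 17973 and 2054 CPM in these sums in Diabetes and to 1701 and 341 CPM in Control.

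Neighbouring genes of the same pathway, from lists that hold none of the 10, also gave no call in endothelial-like wells. Of 15 other adhesion and transmigration molecules tested, 9 had positive and 6 negative log2 changes, with a median of 0.15. Esam, a junction protein of endothelial cells, had the smallest p of these, at 607 and 706 CPM in Diabetes and 303 and 420.1 CPM in Control. Cd99l2, which aids leukocyte passage through junctions, was at 94.4 and 87.8 CPM in Diabetes and 29.5 and 32.0 CPM in Control. In edgeR's test their unadjusted p was 0.0170 and 0.0283 and their adjusted p 0.976. For both genes the 2 Diabetes pools lay above the 2 Control pools, as they did for 17.9% of all genes. Genes named from a list here and below had its smallest p, so separated pools follow in part from that choice.

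Of 27 NF-kB signalling genes tested, 20 were positive and 7 negative, with a median log2 change of 0.70 beside 0.07 over all genes. The summed level of the list was 2327 and 1881 CPM in Diabetes and 1533 and 2294 CPM in Control, so the groups overlapped. The share of positive changes over all genes is not given here, and no conclusion is drawn from the 20 and 7. Chuk, the kinase IKK-alpha, was at 65.0 and 77.7 CPM in Diabetes and 22.3 and 16.3 CPM in Control. Traf2, an adaptor of TNF receptors, was at 11.2 and 10.1 CPM in Diabetes and 38.5 and 56.6 CPM in Control. All 6 other chemokines that could be tested, of 29 in the tables, were positive with a median of 3.19, and most were sparse. Ccl3, Cxcl2 and Ccl27a passed the filter on low counts through the Diabetes pools and so could only count as higher there. Nothing is read from this tally. Cxcl13, a B-cell chemoattractant, was at 0 and 284 CPM in Diabetes and at 0 and 77.5 CPM in Control. In mesangial-like wells it was at 0 and 12149 CPM in Diabetes and 416 and 5472 CPM in Control.

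The 11 leukocyte receptors of the 10 genes that could be tested split into 7 positive and 4 negative, with a median of 0.20. Itgax, Itgb2, Cd44 and Cx3cr1 passed the filter on low counts through the Diabetes pools and so could only count as higher there. Nothing is read from this split. Of these Cx3cr1 was at 1.76 and 6.89 CPM in endothelial-like wells in Diabetes and at 0 and 0.117 CPM in Control, and Cd44 at 1.17 and 1.94 CPM in Diabetes and at 0 and 0.292 CPM in Control. Klf2, Klf4, Thbd and Nos3, endothelial genes that respond to flow, had 1 positive and 3 negative log2 changes with a median of -0.34. Nos3 is counted here although all mice carry its deletion, and nothing is read from these signs. Klf4, a transcription factor known to restrain adhesion genes, was at 247 and 91.7 CPM in Diabetes and at 417 and 188 CPM in Control. Thbd, the anticoagulant thrombomodulin, was at 443 and 496 CPM in Diabetes and at 636 and 586 CPM in Control, with no overlap.

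Among 8 arterial genes 5 were positive and 3 negative, with a median of 0.14. The arterial ligand Efnb2 was at 438 and 150.2 CPM in Diabetes and at 713 and 213 CPM in Control, and the transcription factor Sox17 at 188 and 61.5 CPM in Diabetes and at 309.9 and 102 CPM in Control. Of the 2 venous genes tested, Ephb4 was at 124 and 79.2 CPM in Diabetes and at 200.04 and 100.4 CPM in Control, and Nr2f2 at 23.8 and 30.6 CPM in Diabetes and at 48.8 and 6.36 CPM in Control. No gene of these lists was called in the mesangial-like, immune-like or all-well fits either.

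Over 21 sums of a class in a pool, the genes whose log2 CPM followed Icam1 most closely were H2-K1 (Pearson r = 0.855), Arsa (0.850) and Irf1 (0.826). Icam2 was followed by Cyp20a1 (0.891), Ecscr (0.886) and Alpl (0.857), Vcam1 by Twf1 (0.9001), and Cx3cl1 by Pcdh1 (0.841). The closest to Sele was Pik3c2b (0.855), to Cxcl12 Wfdc1 (0.825), to Cxcl1 Cgref1 (0.762) and to Ccl2 Rasgrp1 (0.756). These correlations describe sums that share pools and depth, 9747 genes were compared, and the lower values belong to the genes read in few wells.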

How the data were processed

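The authors deposited 2 tables of estimated counts per gene and well, 1 per experiment. The submitters' processing notes name cutadapt 1.11, STAR 2.4.2a, BWA 0.7.17-r1188, featureCounts 1.5.1 and build mm10, with roles not given in the sources used here. Of deposited counts above 0, 74.1% in experiment 1 and 79.3% in experiment 2 are whole, and sums were rounded before testing. Reads carry no molecular identifiers, so intervals and floors cover counting error only.

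Wells imaged with 1 cell, with at least 500 genes and at most 30% mitochondrial reads, were kept, giving 6723395 and 37973663 reads in Diabetes and 4763756 and 48389746 reads in Control. Clusters (scanpy 1.11.5, Leiden resolution 0.8) left the 10 genes out and were named from marker lists, with limits for naming set after seeing the data. No doublet caller was run, and wells imaged with 2 cells were left out. A cluster of 40 wells with mixed markers stayed unnamed, as did a cluster of 7 wells whose leading genes included Top2a and Mki67. The tubular-like class rests on 3 detected markers. Of the gene identifiers, 45229 matched GENCODE M21 and 563 did not. Sums of at least 5 wells per pool were tested with edgeR 4.0.16 (quasi-likelihood, robust, TMM, low-count filter, experiment and condition as terms), adjusted by Benjamini-Hochberg over all tested genes at 0.05. Podocyte-like wells were not tested, since 1 pool held 1 well.

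The experiment number in the labels pairs the pools, since the design text names 2 experiments with 1 pool of each condition in each. Deviations of same-experiment pools from their group means correlated at r = 0.157 over 8788 genes in endothelial-like wells and 0.236 over 9650 genes in all kept wells. Residual degrees of freedom were 1 per gene. The p-values measure spread between pools of 3 mice, drawn more from a spread shared over genes than from the gene itself. That shared spread weighed as much as 7.87 degrees of freedom in endothelial-like wells and 5.56 in all kept wells. For mesangial-like and immune-like wells its weight was infinite for the median gene, whose p then rests on the shared spread alone.

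Named genes were the 10 members, and from each list the 2 genes with the smallest p in endothelial-like wells, with 3 most similar genes found per member. The members and lists were chosen with earlier results of these data known. Alternatives were DESeq2 1.42.0, another scaling, no low-count filter, no block, other well limits, thinning to 10000 reads and leaving out each pool. Classes called from marker sums and leaving out the top well of each pool were added after seeing the data. The procedure was tested on simulated data.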

Additional observations from a re-analysis of the deposited data

Results flagged for a closer look

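The Diabetes to Control difference of Icam1 ran in opposite directions in endothelial-like and immune-like wells, which is why it is listed here. The log2 ratio in endothelial-like wells was 1.53 in experiment 1 and 0.062 in experiment 2. In immune-like wells it was -0.81 in experiment 1 and -1.06 in experiment 2. In mesangial-like wells it was 2.15 in experiment 2, and experiment 1 gives no ratio because the Control pool was at 0. The mesangial-like levels of Icam1 were below the empty wells in every pool. The difference between the classes was not tested. The Control pools held 5 and 6 immune-like wells, and without the top well of each pool the immune-like ratio of experiment 2 was 3.13-fold in place of a lower value in Diabetes.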

How the results depend on the processing

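The endothelial-like fit called 3 genes, none of the 10 described. It called 0 without the replicate block, with RLE scaling, without the well filter and with mitochondrial reads at most 15%, 33 without the filter on low counts, 92 with DESeq2 and 11 to 25 with 1 pool left out. The mesangial-like fit called 14 genes, 1 without the block, 25 with DESeq2 and 3 to 594 with 1 pool left out. The immune-like fit called 4 genes, 0 without the block, 2 with RLE scaling, 14 without the low-count filter and 0 to 338 with 1 pool left out. The fit of all kept wells called 12 genes, 1 without the block, 36 without the low-count filter, 562 with DESeq2, 0 without the well filter or at most 15% mitochondrial reads, 19 after thinning and 9 to 170 with 1 pool left out. The cause of these shifts was not tested.

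Among the 10 genes, 308 alternative log2 changes kept direction and side of the threshold, 43 turned and 7 passed it, Ccl2 in 3 of these. In endothelial-like wells Icam2 turned to -0.13 without the block and -0.11 with classes by markers, Vcam1 to -0.24 after thinning, Sele to 0.40 at most 15% mitochondrial reads and 0.075 with classes by markers, Cxcl1 to 0.060 with DESeq2 and 0.87 with classes by markers, and Cx3cl1 to 0.14 after thinning and 0.066 with classes by markers. Cxcl12 turned to 0.22 with DESeq2 in mesangial-like wells and Sele to -0.72 without the block in all kept wells.

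With 1 pool left out, in fits without the block where the lone pool is assumed to vary like the others, endothelial-like log2 changes ran from -0.63 to 2.51 for Icam1, -0.74 to 0.89 for Icam2, -1.62 to 3.16 for Vcam1, -2.40 to 2.41 for Sele, -4.72 to 8.77 for Cxcl1 and -0.85 to 0.70 for Cx3cl1. Selp, Ccl2, Cxcl10 and Cxcl12 kept their direction. In mesangial-like wells they ran from -0.36 to 11.02 for Icam1, -1.45 to 1.09 for Vcam1, -10.45 to 6.81 for Ccl2, -8.99 to 9.39 for Cxcl1, -0.91 to 10.35 for Cxcl10 and -8.66 to 6.68 for Cxcl12. In immune-like wells they ran from -2.83 to 1.396 for Icam1, -3.11 to 1.51 for Icam2, -11.06 to 2.51 for Ccl2 and -1.24 to 9.18 for Cx3cl1. In all kept wells they ran from -0.092 to 3.01 for Icam1, -0.54 to 0.96 for Icam2, -1.69 to 3.09 for Sele, -0.39 to 1.39 for Cxcl12 and -0.46 to 0.91 for Cx3cl1.

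Of the levels, 182 values moved by less than the spread and 18 by more, and of the shares 49 and 31. Thinned, stricter mitochondrial and marker-called sums of mesangial-like and immune-like wells were not run, since a pool fell under 5 wells. Depth limits the low genes: at 3 counts, genes read in few wells of experiment 1 cannot be told from 0.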
